A study of Rattus norvegicus with 36 samples.

Results

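Liver gene expression was compared between rats given the highest dose of bis(2-ethylhexyl) tetrabromophthalate (TBPH), 706 mg/kg, and rats given vehicle. TBPH, a flame retardant, carries bromine on the ring that it shares with di(2-ethylhexyl) phthalate (DEHP), a plasticiser. The comparison rests on 12 of the 36 arrays of the study, 6 labelled TBPH 706 mg/kg and 6 labelled vehicle, chosen by their labels alone, and on 31042 of 31099 probe sets once the 57 array controls were set aside. All rats were male Harlan Sprague Dawley animals that were 7 weeks old when the study began. Both groups were gavaged on 5 consecutive days with 5 ml of corn oil per kg of body weight, which carried TBPH at 706 mg/kg in one group and no TBPH in the other, and the left lobe was sampled a day after dosing ended. The remaining 24 arrays, from the 4 lower doses (0.07 to 70.6 mg/kg), entered only the estimate of the spread and the dose series given for single genes. The labels number the replicates without saying that each stands for its own animal, and any p describes the variation among the arrays, part of which may be technical.

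DEHP and its monoester activate the receptor PPAR alpha in rodent liver, which switches on fatty acid omega-hydroxylases, peroxisomal and mitochondrial beta-oxidation enzymes, acyl-CoA thioesterases and lipid droplet proteins, and drives hepatocytes into the cell cycle. Drug-like chemicals also act on the liver through the receptors CAR and PXR, which raise cytochromes P450, epoxide hydrolase and conjugating enzymes. These known responses give some of the gene groups described here, and other groups cover further pathways and cell types. All groups were chosen with earlier results of these data known. The series title and design ask which liver transcripts TBPH changes at each dose under a false discovery rate of 5%.

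No transcript passed that threshold at 706 mg/kg. Levels are log2 values from robust multi-array averaging (RMA), in which 1 unit is a 2-fold change, and differences are 706 mg/kg minus vehicle. With limma and Benjamini-Hochberg adjustment over all probe sets, 0 of the 31042 (0%) passed an adjusted p of 0.05, and the lowest adjusted p was 0.9995. An unadjusted p under 0.05 was found for 1080 probe sets (3.48%), 412 higher (1.33%) and 668 lower (2.15%) at 706 mg/kg. Without replicate 3 at 706 mg/kg these counts were 835 higher and 1078 lower. Without replicate 6 at 706 mg/kg they were 305 higher and 531 lower, again with 0 past the adjusted threshold. If no probe set differed, 5% would on average have an unadjusted p under 0.05. The share was 3.48% with all arrays and 6.16% without replicate 3 at 706 mg/kg. The 95% intervals given for single genes are limma's, for 6 arrays a side with the spread shared over all 36. The median standard error of a difference was 0.084, and the 95% interval excluded a change of 1.5-fold or more in either direction for 97.75% of probe sets. That share was 99.48% for probe sets with a mean under 4 and 96.52% for those at 6 or more. Probe sets under 4 lie toward the low end of the values, which start at 1.857, and whether their transcripts were detected was not tested. Their intervals bound the array value and not the amount of RNA. The median SD within a group was 0.133 in both groups, and the SD was higher at 706 mg/kg for 49.79% of probe sets. Differences beyond 0.5 were seen for 48 probe sets, 33 higher and 15 lower, and differences beyond 1 for 5. Array values cannot tell fewer cells of a type from less RNA per cell in these whole-tissue samples.

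The sign of the small differences depended on how bright a probe set was. Among probe sets with a mean under 4, 40.59% were higher at 706 mg/kg, with a median difference of -0.019. Among those with a mean of 6 to 9, 60.99% were higher, with a median of 0.020. Over the brightest probe set of each gene at 6 or more, 62.9% of 7843 genes were higher, with a median of 0.021, and leaving out single arrays moved this share between 57.72% (without vehicle replicate 6) and 66.58% (without replicate 3 at 706 mg/kg). The array means behind this overlapped: the bright-minus-dim deviation ran from -0.058 to 0.090 on the 706 mg/kg arrays and from -0.078 to 0.055 on the vehicle arrays. Among probe sets at 6 or more the unadjusted p was under 0.05 for 177 that were higher (1.52%) and 69 that were lower (0.591%), against 412 and 668 over all probe sets. Gene lists with most members at a mean of 6 or more are therefore read beside the 62.9% and the 0.021. Most members were under 6 in the lists of the cell cycle, the aryl hydrocarbon receptor and the bile duct. The same held for markers of T and natural killer cells, B and plasma cells, neutrophils and monocytes, red cells, and other tissues. Their nearer reference is the 40.59% under a mean of 4 and the 42.33%, with a median of -0.017, at 4 to 6.

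**Figure D1:**
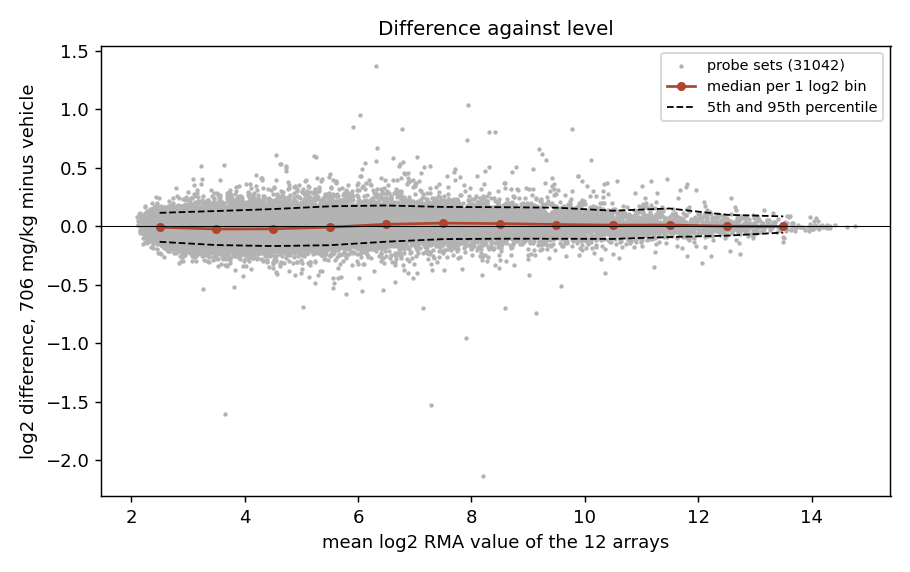
Log2 difference (706 mg/kg minus vehicle, y axis) against the mean log2 value of the 12 arrays (x axis) for 31042 probe sets, with the median per 1-unit bin (line with points) and the 5th and 95th percentiles (dashed). The bin medians lie between -0.025 and 0.025, below 0 for dim probe sets and above 0 between 6 and 12.

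Pairwise correlations over probe sets ran from 0.9924 to 0.9958 among the 12 arrays. The 3′ minus 5′ differences of the control transcripts, a measure of RNA integrity and labelling, leaned higher at 706 mg/kg: for actin they were 1.08 to 1.37 at 706 mg/kg, with 4 of 6 arrays above every vehicle array, against 0.99 to 1.24 in vehicle. For GAPDH they were -0.155 to 0.093 at 706 mg/kg, with 3 of 6 above every vehicle array, against -0.181 to 0.029 in vehicle. On the first principal component of all 36 arrays the values were -8.37 to 14.67 at 706 mg/kg, with 3 of 6 below every vehicle array, against -4.13 to 12.64 in vehicle. The part of these measures in the differences given here was not tested. The markers matched the tissue label: 13 measured hepatocyte markers had mean levels between 9.32 and 14.76, and their median difference was -0.0053, with 5 higher and 8 lower. Of 16 measured markers of pancreas, gut, fat and skeletal muscle, only Myh1 (11.53) and Cfd (7.70) had a mean of 6 or more. The level of Myh1 lay within the range of the hepatocyte markers, while Acta1 (2.76) and Tnnt3 (3.24), also of skeletal muscle, were dim. What the Myh1 probe set reports was not tested.

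The plot of the gene lists gives all 34 lists side by side. No member of any list passed the adjusted threshold, and no member had 706 mg/kg and vehicle arrays without overlap, which occurred for 44 of all probe sets (0.142%). The median of 16 of the 34 lists changed sign when some single array was left out.

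**Figure D2:**
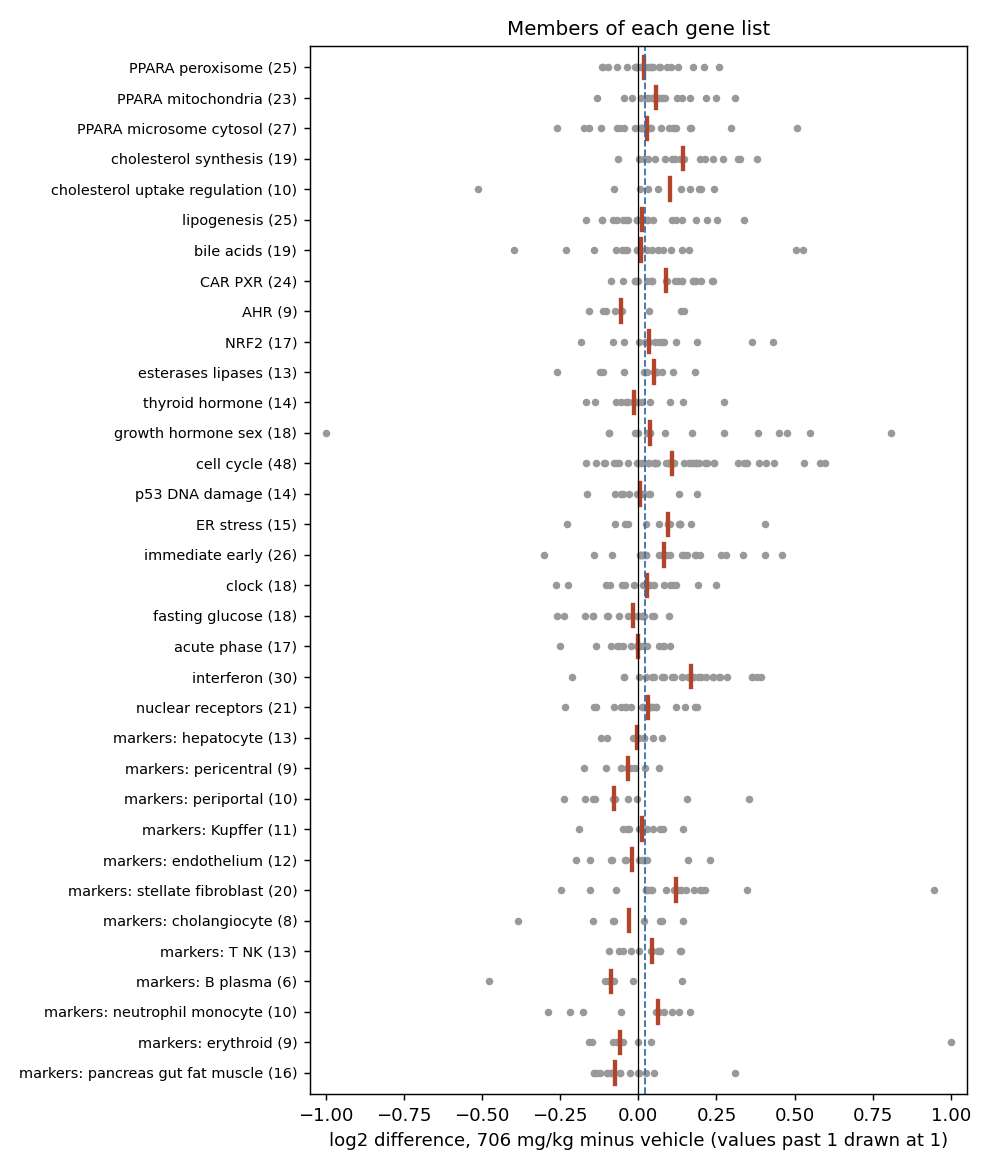
Log2 difference (x axis, 706 mg/kg minus vehicle) of each measured member (grey points) of 34 gene lists (rows, number measured in brackets), with the list median (red bar), 0 (solid line) and the median over bright genes, 0.021 (dashed line). List medians run from -0.087 (B and plasma cell markers) to 0.168 (interferon response).

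Several genes of mitochondrial fatty acid oxidation, and a few of the peroxisomal pathway, were slightly higher at 706 mg/kg without passing the test. Ehhadh, which carries out the middle steps of beta-oxidation in peroxisomes, had log2 levels of 11.28 to 11.50 (median 11.33) at 706 mg/kg, against 10.98 to 11.30 (median 11.17) in vehicle. At 706 mg/kg 4 arrays lay above every vehicle array, and the difference was 0.21 (95% interval 0.023 to 0.40), a 1.16-fold level. Eci1, a mitochondrial enoyl-CoA isomerase, had levels of 11.70 to 12.03 (median 11.82) at 706 mg/kg, against 11.14 to 11.83 (median 11.54) in vehicle, and a difference of 0.31 (95% interval 0.10 to 0.52); its probe set is of a type that can match more than 1 transcript. The vehicle arrays were spread wider than the 706 mg/kg arrays for Eci1, and 3 of the 706 mg/kg arrays exceeded them all. Acot2, a mitochondrial acyl-CoA thioesterase, had levels of 9.37 to 9.56 (median 9.47) at 706 mg/kg, against 9.09 to 9.45 (median 9.22) in vehicle, and a difference of 0.22 (95% interval 0.052 to 0.38). Ech1, a peroxisomal dienoyl-CoA isomerase, differed by 0.26 (95% interval 0.024 to 0.49), and the acyl-CoA dehydrogenases Acadvl and Acads by 0.12 and 0.17. In the other direction Ucp3, a mitochondrial uncoupling protein, differed by -0.13 (95% interval -0.26 to -0.0012). The mitochondrial list had 20 members higher and 3 lower of 23 measured, with a median of 0.058, and the peroxisomal list 16 members higher and 9 lower of 25 measured, with a median of 0.017. The share of higher members was 87.0% in the mitochondrial list and 64.0% in the peroxisomal list, beside 62.9% and a median of 0.021 over bright genes.

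The omega-hydroxylases that head the rodent PPAR alpha response overlapped between the groups. Cyp4a1 had log2 levels of 11.15 to 11.69 (median 11.47) at 706 mg/kg, against 11.01 to 11.72 (median 11.24) in vehicle, with 0 of 6 arrays at 706 mg/kg above every vehicle array and a difference of 0.17 (95% interval -0.14 to 0.47). Its relative Cyp4a3 differed by 0.11, and probe sets of this family may share signal. The upper bounds of Cyp4a1 and Ehhadh correspond to 1.39-fold and 1.32-fold. Acot1, the cytosolic thioesterase, was dim with a mean of 2.83 at 706 mg/kg and 2.81 in vehicle, and Cpt1a, which brings fatty acids into mitochondria, differed by -0.046 (95% interval -0.37 to 0.28). Cidea, a lipid droplet protein, had the largest difference of the microsomal and cytosolic list, with log2 levels of 6.83 to 8.12 (median 7.41) at 706 mg/kg, against 6.47 to 7.55 (median 6.91) in vehicle. At 706 mg/kg 3 arrays (replicates 1, 2 and 4, at 8.12, 7.83 and 7.81) lay above every vehicle array and the others among them, for a difference of 0.51 (95% interval 0.0034 to 1.01). At 70.6 mg/kg Cidea differed by 0.61 from the same vehicle arrays. That list had 19 members higher and 8 lower of 27 measured, with a median of 0.027. Ppara itself differed by -0.23 (95% interval -0.63 to 0.17), or -0.10 without vehicle replicate 1.

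Across doses the PPAR alpha genes did not follow a single order. Relative to the same vehicle arrays, which all these comparisons share, Ehhadh differed by 0.26, 0.016, -0.045, 0.012 and 0.21 from the lowest dose, 0.07 mg/kg, to 706 mg/kg. Cyp4a1 differed by 0.23, -0.085, 0.017, -0.14 and 0.17 over the same doses. For both the difference at 0.07 mg/kg was larger than at 706 mg/kg, which was not tested. Eci1 differed by 0.16, -0.033, -0.076, 0.049 and 0.31, and Acot2 by 0.16, -0.063, -0.11, -0.032 and 0.22. For these 2 genes the largest of the 5 differences was at 706 mg/kg.

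**Figure D3:**
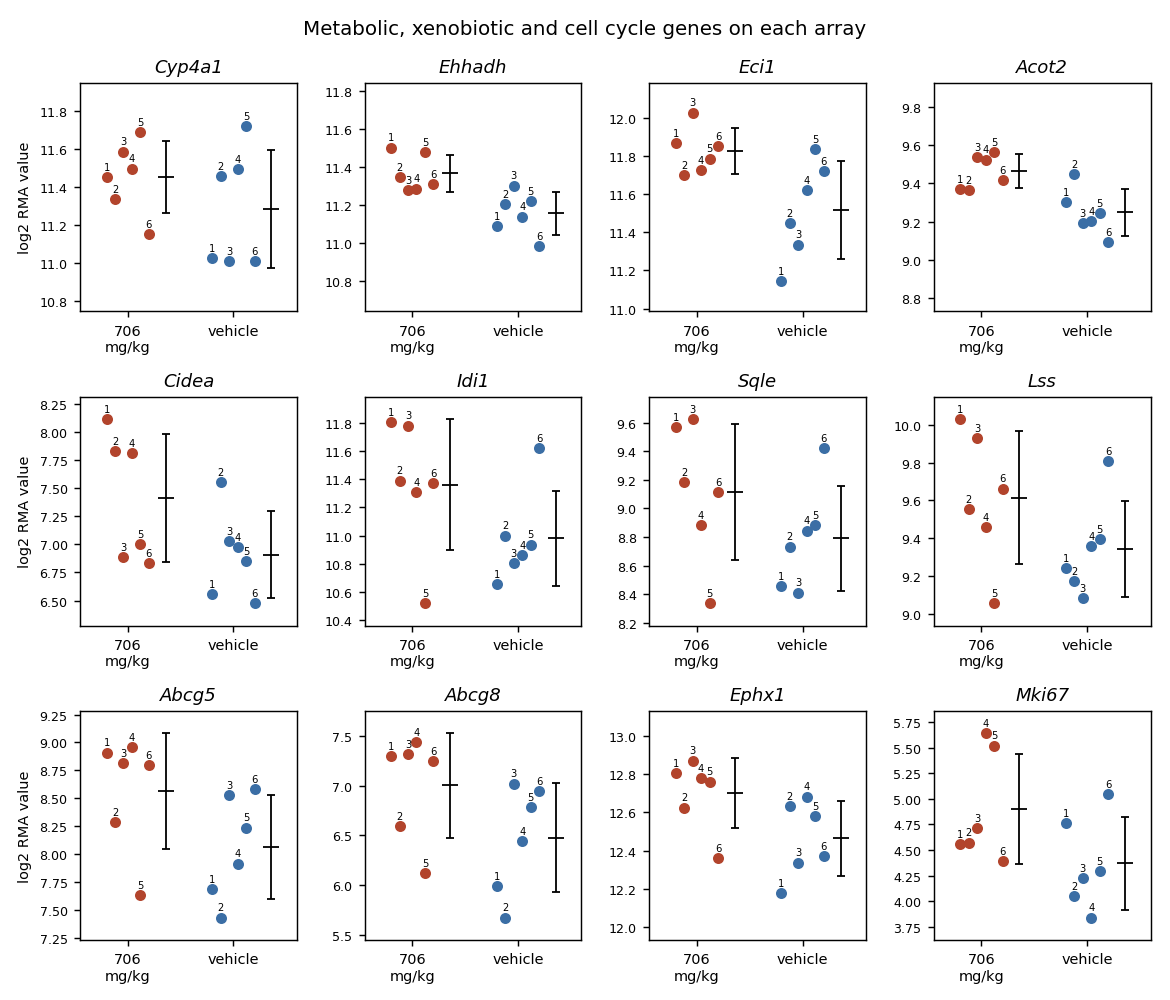
Log2 RMA value (y axis, scale set per gene) of 12 genes on each array, 706 mg/kg left of vehicle; numbers are replicates, and the black bar gives the mean and SD (n = 6 each). All 12 genes overlap between the groups, and Abcg5 and Abcg8 have nearly the same order of arrays, with replicate 5 at 706 mg/kg among the lowest.

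Genes of cholesterol synthesis were nearly all higher at 706 mg/kg, each within the spread of the arrays. The pathway list had 18 members higher and 1 lower of 19 measured, with a median of 0.14. Idi1, which isomerises isopentenyl diphosphate, had log2 levels of 10.52 to 11.80 (median 11.38) at 706 mg/kg, against 10.66 to 11.62 (median 10.90) in vehicle, and a difference of 0.38 (95% interval 0.0027 to 0.76). Vehicle replicate 6 (11.62) was well above the other vehicle arrays and replicate 5 at 706 mg/kg (10.52) was the lowest of all 12. Sqle, squalene epoxidase, had levels of 8.34 to 9.63 (median 9.15) at 706 mg/kg, against 8.41 to 9.42 (median 8.79) in vehicle, and a difference of 0.33 (95% interval -0.12 to 0.77). Lss, lanosterol synthase, differed by 0.27 (95% interval -0.040 to 0.58), Acat2, the cytosolic thiolase at the entry of the pathway, by 0.32 and Hsd17b7, a late sterol enzyme, by 0.24. Only Sc5d, sterol C5-desaturase, was lower (-0.064).

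The mean over the pathway varied widely between arrays of both groups. The list mean, relative to the vehicle mean, was 0.47, 0.13, 0.43, 0.047, -0.32 and 0.15 on 706 mg/kg replicates 1 to 6, against -0.11, -0.060, -0.17, 0.031, -0.022 and 0.33 on vehicle replicates 1 to 6. Replicates 1 and 3 at 706 mg/kg and vehicle replicate 6 were high, and replicate 5 at 706 mg/kg was the lowest of the 12. The list median moved between 0.077 without replicate 1 and 0.226 without replicate 5 at 706 mg/kg. Of regulators and carriers, Srebf2, the transcription factor of the pathway, differed by 0.19 (95% interval -0.067 to 0.45), Scap, its escort, by 0.20 (95% interval -0.090 to 0.49), Insig1, which retains both in the endoplasmic reticulum, by 0.24, and the cholesterol exporter Abca1 by -0.51 (95% interval -1.38 to 0.35). Abca1 differed by -0.23 without replicate 1 at 706 mg/kg and by -0.81 without vehicle replicate 4. The regulation and uptake list had 8 members higher and 2 lower of 10 measured, with a median of 0.10. Over all 21 probe sets of these members its median was 0.032. Idi1 and Sqle were above vehicle at every dose: Idi1 differed by 0.45, 0.29, 0.18, 0.38 and 0.38, and Sqle by 0.42, 0.24, 0.19, 0.33 and 0.33, from 0.07 to 706 mg/kg, against shared vehicle arrays.

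Promoters of this pathway are shown because nearly all of its members were higher. For 16 of the 19 measured members a RefSeq promoter (build GRCr8, the 250 bases before the start) was found and searched on both strands. Sqle was not among them. The CCAAT box (letters CCAAT), bound by NF-Y, was present in 13 of 16 (81.2%), against 34% of all 33469 promoters, and the core of the sterol response element written as TCACNCCA in 1 of 16 (6.25%), against 3.24%. The pathway shares count a single promoter per gene and the others every promoter entry, and the differences were not tested. Capitals in the sequences mark a CCAAT box (ATTGG where it lies on the other strand) or that core. The promoters are Idi1 at chr17:66547525-66547774 (minus strand), Lss at chr20:12118231-12118480 (minus strand), Srebf2 at chr7:115543057-115543306 (plus strand) and the sterol transporter Abcg5 at chr6:15717686-15717935 (plus strand), each given 5′ to 3′ along its gene.
Idi1: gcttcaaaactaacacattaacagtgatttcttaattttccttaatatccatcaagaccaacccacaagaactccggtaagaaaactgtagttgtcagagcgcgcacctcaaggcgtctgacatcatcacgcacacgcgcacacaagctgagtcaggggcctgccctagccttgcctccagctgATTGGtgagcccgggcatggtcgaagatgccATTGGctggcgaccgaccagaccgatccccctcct
Lss: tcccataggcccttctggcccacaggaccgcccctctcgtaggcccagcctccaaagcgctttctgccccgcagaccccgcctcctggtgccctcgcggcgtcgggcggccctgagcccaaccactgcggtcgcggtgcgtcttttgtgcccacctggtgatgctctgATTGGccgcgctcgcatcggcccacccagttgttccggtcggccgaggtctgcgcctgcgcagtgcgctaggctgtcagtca
Srebf2: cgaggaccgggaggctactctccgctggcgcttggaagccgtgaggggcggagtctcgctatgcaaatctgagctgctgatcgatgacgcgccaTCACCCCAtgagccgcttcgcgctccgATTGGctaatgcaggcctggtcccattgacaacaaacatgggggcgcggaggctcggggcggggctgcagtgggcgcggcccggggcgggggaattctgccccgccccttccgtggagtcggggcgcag
Abcg5: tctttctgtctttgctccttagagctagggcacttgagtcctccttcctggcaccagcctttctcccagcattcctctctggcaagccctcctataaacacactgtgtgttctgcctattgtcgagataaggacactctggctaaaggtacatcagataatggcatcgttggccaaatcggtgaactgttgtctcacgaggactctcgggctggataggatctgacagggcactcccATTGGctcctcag
Idi1 holds 2 CCAAT boxes and Lss 1, without the sterol core in these windows, and Srebf2 holds both motifs. These letters describe the windows and say nothing of binding in these livers.

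Abcg5 and Abcg8, which together form the transporter that sends sterols into bile, had the largest differences among genes of bile formation. Abcg5 had log2 levels of 7.63 to 8.96 (median 8.80) at 706 mg/kg, against 7.43 to 8.58 (median 8.08) in vehicle, and a difference of 0.50 (95% interval 0.047 to 0.96). Abcg8 had levels of 6.12 to 7.44 (median 7.27) at 706 mg/kg, against 5.67 to 7.02 (median 6.61) in vehicle, and a difference of 0.53 (95% interval 0.051 to 1.00). For each gene 4 of the 6 arrays at 706 mg/kg lay above every vehicle array, while replicate 5 at 706 mg/kg was as low as the lower vehicle arrays. The genes lie head to head, and the RefSeq promoter windows of the pair (250 bases before and 50 after each start, 300 in all) share 295 bases on chromosome 6, so the Abcg5 sequence covers most of the Abcg8 window, read on the opposite strand. Their values moved in step over the 12 arrays (Pearson's r = 0.987, a description over arrays that share normalization and 2 treatments). From 0.07 to 706 mg/kg Abcg5 differed from the shared vehicle arrays by 0.56, 0.30, 0.17, 0.54 and 0.50, so the vehicle mean was the lowest of the 6 group means.

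Other genes of bile acids and fat were mixed. Cyp7a1, which catalyses the first committed step from cholesterol to bile acids, had levels of 8.88 to 11.62 (median 10.07) at 706 mg/kg, against 9.30 to 11.21 (median 10.74) in vehicle, and a difference of -0.40 (95% interval -1.38 to 0.59), which was -0.69 without replicate 3 and -0.14 without replicate 6 at 706 mg/kg. The bile acid list had 10 members higher and 9 lower of 19 measured, with a median of 0.0093. Fatty acid and triglyceride synthesis had 13 members higher and 12 lower of 25 measured, with a median of 0.013. Elovl6, a fatty acid elongase, differed by 0.34, the acetyl-CoA synthetase Acss2 by 0.25 (95% interval -0.041 to 0.54), fatty acid synthase Fasn by 0.12 (95% interval -0.32 to 0.56) and Thrsp, a lipogenic nuclear protein, by -0.17 (95% interval -0.63 to 0.29). Without replicate 1 at 706 mg/kg Acss2 differed by 0.15, and without replicate 5 at 706 mg/kg Thrsp differed by 0.044. The fat-synthesis list mean was high on replicates 1 and 3 at 706 mg/kg and on vehicle replicate 1, and low on replicate 5 at 706 mg/kg.

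Among genes of drug metabolism, epoxide hydrolase was slightly higher on most 706 mg/kg arrays. Ephx1 had log2 levels of 12.36 to 12.87 (median 12.77) at 706 mg/kg, against 12.18 to 12.68 (median 12.48) in vehicle, with 4 of 6 arrays at 706 mg/kg above every vehicle array, and a difference of 0.24 (95% interval 0.053 to 0.42). The classical PXR target Cyp3a23-3a1 differed by 0.045 (95% interval -0.19 to 0.28), Cyp2b3 by -0.048 (95% interval -0.14 to 0.047), and Aldh1a1, the NADPH reductase Por and the haem synthesis enzyme Alas1 by 0.24, 0.18 and 0.20. The CAR and PXR list had 17 members higher and 7 lower of 24 measured, with a median of 0.090, and its median was 0.045 without vehicle replicate 1. Aryl hydrocarbon receptor genes had 3 members higher and 6 lower of 9 measured, with a median of -0.056, but only 4 members had a mean of 6 or more, and over these the median was 0.084. Cyp1a1, the usual sentinel of that receptor, differed by -0.053 (95% interval -0.27 to 0.16). The NRF2 antioxidant list had 14 members higher and 3 lower of 17 measured, with a median of 0.033. Its highest members were the glutathione transferase Gsta3 (0.43, 95% interval -0.092 to 0.96) and Osgin1, a growth inhibitor induced by oxidative stress (0.36 (95% interval 0.00069 to 0.72), and 0.21 without vehicle replicate 6). Its lowest was Gclc, the catalytic subunit of glutathione synthesis (-0.18, 95% interval -0.41 to 0.047), and Nqo1 differed by 0.033 (95% interval -0.19 to 0.25). Carboxylesterases and lipases, which cleave phthalate diesters, had 9 members higher and 4 lower of 13 measured, with a median of 0.052. Cyp2b2 was not analysed here.

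Mitotic genes were higher on some 706 mg/kg arrays and not on others. The cell cycle list had 39 members higher and 9 lower of 48 measured, with a median of 0.11, at a median level of 5.25, where dim genes as a whole leaned lower. Mki67, a marker of dividing cells, had log2 levels of 4.39 to 5.64 (median 4.64) at 706 mg/kg, against 3.84 to 5.05 (median 4.26) in vehicle, and a difference of 0.53 (95% interval 0.042 to 1.02). Ccnb1, the mitotic cyclin, had levels of 5.08 to 6.28 (median 5.23) at 706 mg/kg, against 4.37 to 5.79 (median 4.80) in vehicle, and a difference of 0.60 (95% interval 0.085 to 1.11). A second Ccnb1 probe set differed by 0.14 (95% interval -0.19 to 0.48). On the Mki67 probe set and the first Ccnb1 probe set, replicates 4 and 5 at 706 mg/kg exceeded every vehicle array. The list mean was -0.11, -0.0024, 0.011, 0.45, 0.49 and 0.019 on replicates 1 to 6 at 706 mg/kg, against 0.19, -0.12, -0.13, -0.18, -0.13 and 0.37 on vehicle replicates 1 to 6. Replicates 4 and 5 at 706 mg/kg and vehicle replicates 1 and 6 were the high arrays, and the median over members was 0.070 without replicate 4 at 706 mg/kg and 0.181 without vehicle replicate 6. The replication clamp Pcna differed by -0.062, and the S-phase kinase Tk1 by 0.18 (95% interval 0.019 to 0.35). The p53 target Cdkn1a, a brake on the cycle, differed by 0.19 (95% interval -0.048 to 0.42), and the p53 list had 8 members higher and 6 lower of 14 measured, with a median of 0.0048. At 0.07 to 70.6 mg/kg the Ccnb1 differences were 0.12, 0.26, 0.24 and 0.13, against the same vehicle arrays.

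**Figure D4:**
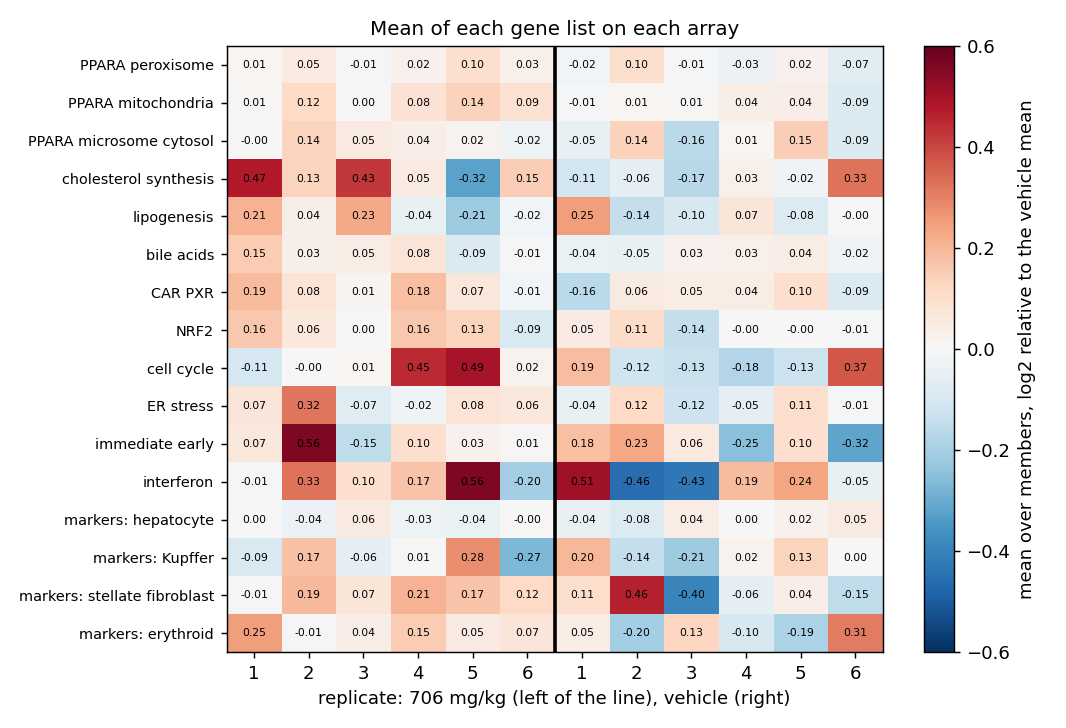
Mean over the measured members of 16 gene lists (rows) on each array (columns, 706 mg/kg left of the line, vehicle right), as log2 relative to the vehicle mean (colour and printed value). Interferon genes run from -0.20 to 0.56 at 706 mg/kg and from -0.46 to 0.51 in vehicle, and the groups overlap in every list shown.

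Most interferon response genes were slightly higher at 706 mg/kg, and the groups overlapped. That list had 27 members higher and 3 lower of 30 measured, with a median of 0.17. Its mean was -0.0075, 0.33, 0.10, 0.17, 0.56 and -0.20 on 706 mg/kg replicates 1 to 6, against 0.51, -0.46, -0.43, 0.19, 0.24 and -0.045 on vehicle replicates 1 to 6. Vehicle replicates 2 and 3 were low and replicate 5 at 706 mg/kg was the highest, with vehicle replicate 1 close behind. Without vehicle replicate 2 the median over members was 0.069, and without vehicle replicate 1 it was 0.239. The Kupffer cell markers moved with it, with means of 0.28 on replicate 5 at 706 mg/kg, 0.20 on vehicle replicate 1, -0.14 on vehicle replicate 2 and -0.21 on vehicle replicate 3, and their part in the result was not tested. Over its 11 measured members the Kupffer list had a median of 0.012, 7 higher and 4 lower. Cxcl9, a chemokine induced by interferon gamma, differed by 0.39, Isg15, the ubiquitin-like effector, by 0.36, and Ifit1, an RNA-binding effector, by -0.21 (95% interval -0.42 to -0.0093). With limma, 0 members of the list were higher with an unadjusted p under 0.05, and 1 (Ifit1) was lower. Of the 30 measured members 24 had a mean of 6 or more, and over such probe sets these shares were 1.52% and 0.591%. Over all probe sets they were 1.33% and 2.15%. Ubd, a ubiquitin-like modifier also induced by interferon gamma, had levels of 7.16 to 9.17 (median 8.95) at 706 mg/kg, against 5.08 to 8.33 (median 7.93) in vehicle, and a difference of 1.04 (95% interval -0.25 to 2.33), which was 0.57 without vehicle replicate 4, at 5.08.

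Immediate early genes, which respond within minutes to many stimuli, had 23 members higher and 3 lower of 26 measured, with a median of 0.083. That median was 0.0058 without vehicle replicate 6, and vehicle replicates 4 and 6 were the lowest arrays, with list means of -0.25 and -0.32. At the high end 1 array stood out: the list mean was 0.560 on replicate 2 at 706 mg/kg, against at most 0.10 on the other arrays of that dose and 0.23 in vehicle. That array had Jun at 10.17 and Atf3 at 6.47, and without it their differences were 0.22 and 0.23, against 0.46 and 0.41 with it. It also had the liver hormone Fgf21 at 9.74, against at most 7.48 on the other arrays at 706 mg/kg and 6.40 to 9.05 in vehicle. Without it Fgf21 differed by -0.44, and with it by 0.0084. Endoplasmic reticulum stress genes had 11 members higher and 4 lower of 15 measured, with a median of 0.096 (0.035 without vehicle replicate 3), and were also highest on replicate 2 at 706 mg/kg, with a list mean of 0.32.

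Stellate cell and fibroblast markers had 17 members higher and 3 lower of 20 measured, with a median of 0.12. Lum, the matrix proteoglycan lumican, had levels of 5.95 to 7.03 (median 6.50) at 706 mg/kg, against 4.33 to 7.40 (median 5.58) in vehicle, and a difference of 0.95 (95% interval -0.19 to 2.09). Its vehicle arrays spanned the full range of the 706 mg/kg arrays. The list mean was -0.0059 to 0.21 at 706 mg/kg, against -0.40 (replicate 3) to 0.46 (replicate 2) in vehicle, and the median was 0.019 without vehicle replicate 3. Periportal markers had 2 members higher and 8 lower of 10 measured, with a median of -0.077, and the median was -0.012 without vehicle replicate 3. Pericentral markers had 2 members higher and 7 lower of 9 measured, with a median of -0.034, and the median was 0.021 without replicate 3 at 706 mg/kg. Ass1, a periportal urea cycle enzyme, differed by -0.15 (95% interval -0.28 to -0.012).

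The growth hormone and sex-biased list held the gene with the largest negative difference of those named here. Bcl6, a transcriptional repressor whose liver level falls under growth hormone in rodents, had log2 levels of 5.77 to 7.09 (median 6.59) at 706 mg/kg, against 6.60 to 9.58 (median 7.95) in vehicle, with 3 arrays at 706 mg/kg below every vehicle array. Its difference was -1.53 (95% interval -2.80 to -0.25), and leaving out single arrays kept it between -1.82 and -1.22. From 0.07 to 706 mg/kg it differed by -0.57, -0.35, -1.06, -0.89 and -1.53 from the shared vehicle arrays. Cish and Socs2, feedback inhibitors that growth hormone induces through STAT5, differed by 0.55 and 0.47, and Onecut1, a liver transcription factor, by 0.81. None of these had an unadjusted limma p under 0.05. Hsd17b2, a steroid-inactivating dehydrogenase, had levels of 9.88 to 10.65 (median 10.05) at 706 mg/kg, against 9.48 to 9.93 (median 9.79) in vehicle, and a difference of 0.38 (95% interval 0.042 to 0.72). At 70.6 mg/kg Hsd17b2 differed by 0.56 from the shared vehicle arrays. The male-specific Cyp2c11 differed by -0.095 (95% interval -0.20 to 0.012), and the list as a whole had 12 members higher and 6 lower of 18 measured, with a median of 0.039.

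The remaining lists had smaller medians or few members. Thyroid hormone genes had 5 members higher and 9 lower of 14 measured, with a median of -0.012, and the deiodinase Dio1 differed by -0.0021 (95% interval -0.18 to 0.17). Clock genes had 11 members higher and 7 lower of 18 measured, with a median of 0.027, fasting and glucose genes 7 members higher and 11 lower of 18 measured, with a median of -0.018, and acute phase genes 7 members higher and 10 lower of 17 measured, with a median of -6.4e-05. Nuclear receptors had 13 members higher and 8 lower of 21 measured, with a median of 0.032. Endothelial markers had 6 members higher and 6 lower of 12 measured, with a median of -0.019, bile duct markers 4 members higher and 4 lower of 8 measured, with a median of -0.029, and T and natural killer cell markers 9 members higher and 4 lower of 13 measured, with a median of 0.042. Neutrophil and monocyte markers had 6 members higher and 4 lower of 10 measured, with a median of 0.062, which was -0.018 without vehicle replicate 2. The mean of that list at 706 mg/kg, relative to vehicle, was -0.013. With an unadjusted limma p under 0.05, 3 of its 10 members (Ccr2, Fcnb and Defa5, all dim, at -0.22, -0.29 and -0.18) were lower and 0 higher. Over all probe sets these shares were 2.15% lower and 1.33% higher. All 10 members had a mean under 6, where probe sets as a whole leaned lower. B and plasma cell markers had 1 members higher and 5 lower of 6 measured, with a median of -0.087. Jchain, the joining chain of plasma cell antibodies, differed by -0.48 (95% interval -0.83 to -0.13). From 0.07 to 70.6 mg/kg Jchain differed by -0.26, -0.36, -0.24 and -0.097 from the same vehicle arrays.

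Genes with the largest differences had arrays at very different levels within a group. Nfe2, a transcription factor of red cell precursors, had log2 levels of 5.12 to 8.19 (median 7.31) at 706 mg/kg, against 4.43 to 7.27 (median 5.43) in vehicle, and a difference of 1.36 (95% interval 0.22 to 2.51). Its group mean was above vehicle at every dose, by 1.31, 0.92, 0.91, 1.36 and 1.36 from 0.07 to 706 mg/kg. The erythroid marker list, which includes Nfe2, had 2 members higher and 7 lower of 9 measured, with a median of -0.060. Retreg1, a receptor for the turnover of endoplasmic reticulum, had levels of 6.82 to 7.77 (median 7.68) at 706 mg/kg, against 7.05 to 9.20 (median 8.68) in vehicle, and a difference of -0.95 (95% interval -1.79 to -0.12), with differences of -0.18, -0.23, -0.22 and -0.34 from 0.07 to 70.6 mg/kg. Ppp2r2b, a regulatory subunit of protein phosphatase 2A, differed by 0.83 (95% interval 0.093 to 1.56). From 0.07 to 70.6 mg/kg it differed by 0.58, 0.54, 0.67 and 0.46 from the same vehicle arrays. A dimmer probe set of the cytochrome Cyp2d4 differed by -0.54 (95% interval -0.99 to -0.097), against 0.032 on its brightest, and the liver-intestine cadherin Cdh17 by -0.70 (95% interval -1.80 to 0.39). Cdh17 was at 6.71 and 6.70 on replicates 3 and 4 at 706 mg/kg and at 10.13 on replicate 1, and its difference was -1.08 without replicate 1 and -0.40 without replicate 4.

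Cmc1, a mitochondrial protein of cytochrome c oxidase assembly, had 2 levels and nothing between them. It was at 9.93, 9.74, 9.94 and 9.87 on replicates 1, 3, 4 and 5 at 706 mg/kg and at 8.98 and 8.91 on replicates 2 and 6, against 8.88 to 9.04 in vehicle. Its difference was 0.61 (95% interval 0.21 to 1.02). Over all 36 arrays no value fell between 9.06 and 9.74, and the upper level, set at 9.5 after the values were seen, was reached by 0 of 6 vehicle arrays, 0 at 0.07, 2 at 0.71, 0 at 7.06, 3 at 70.6 and 4 at 706 mg/kg. RT1-Ba, a class II antigen-presenting chain, had a single low array at 706 mg/kg, replicate 5 at 4.44, against 9.30 to 9.85 in vehicle. Its difference was -0.75, and 0.12 without that array. Over all 36 arrays 3 were under 6, at 5.20 or less, and the others were at 8.18 or more.

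**Figure D5:**
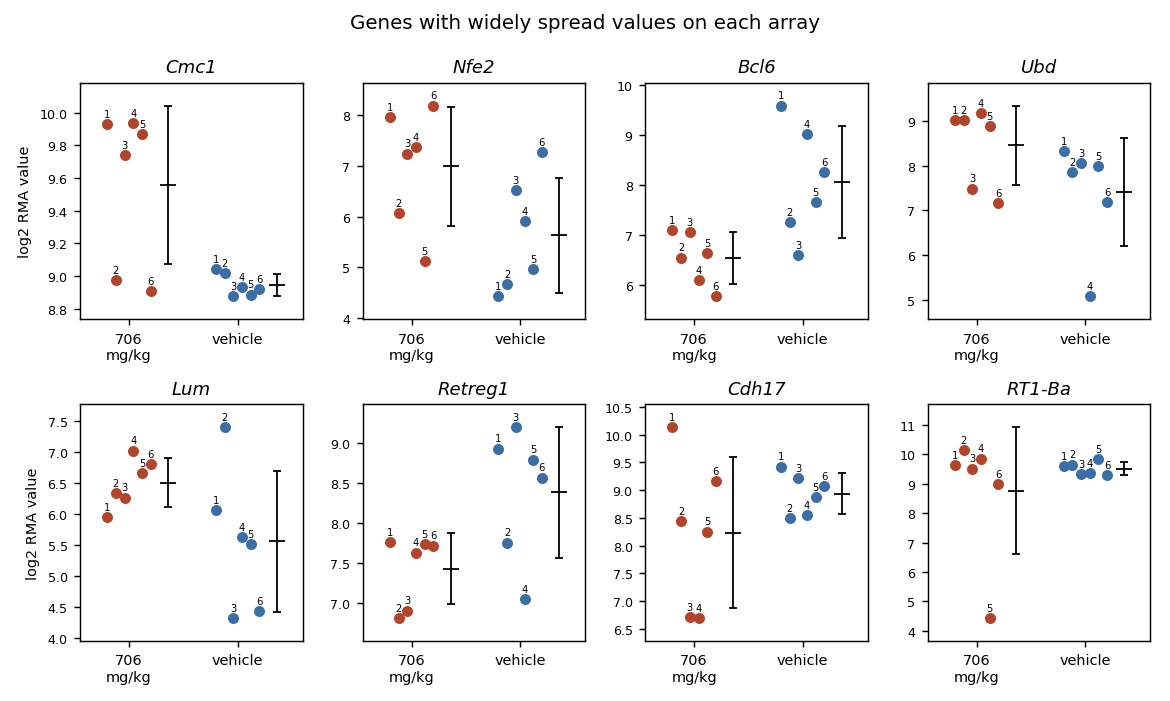
Log2 RMA value (y axis, scale set per gene) of 8 genes with widely spread values on each array, 706 mg/kg left of vehicle; numbers are replicates, and the black bar gives the mean and SD (n = 6 each). Cmc1 shows 2 separate levels at 706 mg/kg and 1 in vehicle, and RT1-Ba a single array at 4.44.

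Among named genes at a mean of 6 or more, those with the smallest p were of modest size. The higher ones were Mical3 (0.35, 95% interval 0.13 to 0.57), an actin-directed monooxygenase, Cabin1 (0.18), a calcineurin-binding protein, Ankh (0.25), a pyrophosphate transport protein, Cmc1, Eci1 (both given above), Gata4 (0.29, 95% interval 0.090 to 0.49), a transcription factor, Galm (0.18), galactose mutarotase, a second Tk1 probe set (0.26), Fnip1 (0.19), a folliculin partner, and Tnrc6c (0.19), a scaffold of microRNA silencing. The lower ones were Rab3gap1 (-0.24), Rchy1 (-0.19), a ubiquitin ligase, Pcsk6 (-0.26, 95% interval -0.44 to -0.084), a proprotein convertase, Pde6g (-0.25), Ywhaq (-0.25), a 14-3-3 protein, Jchain, Abcf3 (-0.19), Mta3 (-0.16), Capn10 (-0.20) and Cdk5rap2 (-0.18). For Rab3gap1, Ywhaq and Abcf3 these values come from a probe set that is not the brightest of the gene, and the brightest differed by 0.0067, -0.12 and 0.13, of opposite sign for Rab3gap1 and Abcf3. Tk1 had a dim further probe set at -0.22. All of these are under 1.5-fold in size apart from Cmc1, and none passed the adjusted threshold.

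The arrays of 706 mg/kg and vehicle did not overlap for 12 probe sets that were higher (0.0387%) and 32 that were lower (0.103%). At a mean of 6 or more these were 6 higher (0.0514%) and 3 lower (0.0257%) of 11680 probe sets. The named ones were Ptprs (0.20, 95% interval 0.028 to 0.37), a receptor phosphatase, Supt6h (0.19, 95% interval 0.015 to 0.37), an elongation factor, Phip (0.12, 95% interval -0.018 to 0.27), Hnrnph1 (0.12, 95% interval -0.026 to 0.26), a splicing factor, and Adtrp (0.10, 95% interval -0.0037 to 0.21), all higher, and Klhl42 (-0.25, 95% interval -0.45 to -0.046), Lrrc61 (-0.17, 95% interval -0.34 to -0.0024) and Smim14 (-0.14, 95% interval -0.27 to -0.0036), all lower. Smim14 had log2 levels of 11.13 to 11.28 (median 11.26) at 706 mg/kg, against 11.32 to 11.45 (median 11.36) in vehicle. Its group mean was below vehicle at each dose, with differences of -0.11 to -0.18 against the same vehicle arrays. The gap between the groups was widest for Smim14, at 0.043.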

How the data were processed

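RNA of the left liver lobe, with an integrity number of at least 7, was hybridized to Affymetrix rat arrays with the 3′ IVT Plus kit, per the labels' protocols. The deposited log2 values were made by the authors with RMA in the affy package, per the submitters' processing notes; versions are not given in the sources used here. They were used as deposited and ran from 1.857 to 14.774, with a median of 5.092. The number of arrays limits the precision. Control probe sets (57) were left out, and 31042 were tested, of which 20826 have 1 gene symbol, 436 several and 9780 none in GEO's platform annotation.

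Groups came from the labels, and 0 sample columns were left unused. limma 3.58.1 in R 4.3.3 fitted 1 mean per group to all 36 arrays (30 residual degrees of freedom), with a two-sided moderated test of 706 mg/kg minus vehicle and Benjamini-Hochberg adjustment over all probe sets. The labels' design names R/maanova, which was not used here; an ordinary analysis of variance per probe set was run as the nearest alternative. The fit was tested on simulated data made from these arrays with added changes, whose recovery was required only at the largest added size. Recovery of changes as small as most differences given here was not required.

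The members and the 34 gene lists (559 of 645 listed symbols measured) were chosen with earlier results of these data known. Named genes were a panel (24 of 28 measured), the 10 smallest p and 5 largest differences in each direction among probe sets at a mean of 6 or more, the 2 smallest p of each list in each direction, and the 5 widest gaps between groups in each direction; further members of lists serve as examples and were picked with their values in view. The brightest probe set stands for a gene unless stated. For 8 panel genes with several probe sets, 7 had the same sign in all. Alternatives were the 12 arrays alone, a replicate block, other moderation, weights per array and leaving out dim probe sets. Others were renormalization, a threshold of 0.1, leaving out each array and, for list medians, all probe sets of each member. Promoters are RefSeq's (GRCr8), and Python 3.11.15 searched them.

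Same-numbered arrays showed little likeness over all probe sets: the correlation of their deviations ran from -0.170 to 0.169. Of 6 arrays at 706 mg/kg, 1 correlated best with its own number. Whether same-numbered arrays were processed together was not tested.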

Additional observations from a re-analysis of the deposited data

Results flagged for a closer look

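In 35 of 420 gene or list groups of 6 arrays tested (8.33%), 1 array stood apart from the other 5 of its group by Dixon's criterion. For independent groups the criterion flags about 1 in 20. Many of these genes were named for their values on the same arrays, and the groups share arrays and members. The 8.33% can therefore not be set against 1 in 20. Values are log2 levels, with the range of the other 5 arrays in brackets. On replicate 1 at 706 mg/kg, the values were Tp53inp1 at 4.37 (others 4.51 to 4.59). On replicate 2 at 706 mg/kg, the values were Apoa1 at 13.72 (others 13.39 to 13.43), Atf3 at 6.47 (others 5.21 to 5.52), Cyp2d4 at 6.75 (others 5.85 to 6.19), Fgf21 at 9.74 (others 6.64 to 7.48) and Jun at 10.17 (others 8.36 to 8.88). On replicate 3 at 706 mg/kg, the values were Cyp1a2 at 12.79 (others 13.02 to 13.06), Galm at 9.13 (others 9.32 to 9.44) and Glul at 10.81 (others 11.09 to 11.20). On replicate 4 at 706 mg/kg, the values were Col5a2 at 7.74 (others 7.38 to 7.49) and Smim14 at 11.13 (others 11.23 to 11.28). On replicate 5 at 706 mg/kg, the values were Fabp2 at 5.45 (others 6.12 to 6.48) and RT1-Ba at 4.44 (others 8.996 to 10.15). On replicate 6 at 706 mg/kg, the values were Cxcl11 at 8.99 (others 9.22 to 9.31), Lgr5 at 3.76 (others 3.47 to 3.56), Phip at 7.53 (others 7.26 to 7.32) and Ptprs at 8.50 (others 8.26 to 8.31). The mean of the immediate early list was 0.56 on replicate 2 at 706 mg/kg, against -0.15 to 0.10 on the others of its group. The mean of the acute phase list was -0.11 on replicate 3 at 706 mg/kg, against -0.0136 to 0.0269 on the others of its group. On vehicle replicate 1, the values were Ifit1 at 6.00 (others 5.49 to 5.66). On vehicle replicate 2, the values were Epcam at 9.02 (others 8.63 to 8.75). On vehicle replicate 3, the values were Gclc at 9.71 (others 9.997 to 10.12) and Ywhaq at 8.76 (others 9.10 to 9.22). On vehicle replicate 4, the values were Abca1 at 8.33 (others 9.62 to 10.34), Axin2 at 6.11 (others 6.29 to 6.38), Cd4 at 5.47 (others 5.07 to 5.21), Ehd3 at 7.97 (others 7.63 to 7.75), Lrrc61 at 6.35 (others 6.15 to 6.21) and Ubd at 5.08 (others 7.19 to 8.33). On vehicle replicate 5, the values were Folr2 at 6.73 (others 6.12 to 6.25). On vehicle replicate 6, the values were Hemgn at 3.65 (others 2.72 to 3.04), Idi1 at 11.62 (others 10.66 to 11) and Nr1d2 at 5.99 (others 6.96 to 7.53). The mean of the mitochondrial PPAR alpha list was -0.0872 on vehicle replicate 6, against -0.00812 to 0.0387 on the others of its group. The mean of the periportal marker list was 0.25 on vehicle replicate 3, against -0.11 to -0.00647 on the others of its group.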

How the results depend on the processing

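No probe set passed the adjusted threshold of 0.05, or of 0.1, with limma in any setting, and the lowest adjusted p over settings was 0.811 (without replicate 3 at 706 mg/kg). Unadjusted p under 0.05 was found for 1269 probe sets with the 12 arrays alone, 1075 with ordinary analysis of variance, 1038 with trend and robust moderation, 1062 after a further quantile normalization, 1057 after median centring and 1295 without the 2 arrays of high control ratio. The replicate block gave 0 calls and 1034 such probe sets. With array weights there were 798 higher and 1058 lower. Restricting to a mean of at least 6 gave 183 higher and 75 lower, with 6 and 3 whose groups did not overlap, and moved the aryl hydrocarbon receptor list median to 0.08405. The brightest probe set of each gene gave 205 higher and 250 lower, with 11 lower that did not overlap. These last 2 settings test fewer probe sets. With all probe sets of each member, list medians were 0.032 for cholesterol regulation and uptake and 0.018 for carboxylesterases and lipases. They were -0.0046 for fat synthesis and -0.0033 for bile acids. Cholesterol synthesis (0.13), interferon (0.16) and mitochondrial PPAR alpha genes (0.057) kept medians near those given above. Leaving out single arrays gave 305 to 835 higher and 531 to 1078 lower (fewest without replicate 6, most without replicate 3, at 706 mg/kg), and 24 to 110 higher and 49 to 129 lower that did not overlap, which 5 arrays against 6 make easier to meet. For 16 of 176 named probe sets the sign turned in some setting. Fgf21 was -0.016 after quantile normalization and Dio1 0.011 after median centring. When single arrays were left out the sign turned for Acot1 (-0.05275 to 0.07862), Acta1 (-0.00265 to 0.08944), C1qb (-0.08986 to 0.02655), Cpt1a (-0.1877 to 0.03675), Cyp3a23-3a1 (-0.07554 to 0.1218), Dio1 (-0.04525 to 0.04352), Fgf21 (-0.4357 to 0.3162), Foxo1 (-0.03764 to 0.1068), Glul (-0.04152 to 0.07657), Hemgn (-0.01926 to 0.1665), Ifit2 (-0.1945 to 0.08099), Lgr5 (-0.01077 to 0.1243), Nqo1 (-0.03668 to 0.1145), RT1-Ba (-1.024 to 0.1185), Thrsp (-0.3821 to 0.04425), Ugt2b1 (-0.1702 to 0.02155). The cause was not tested.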
